A study of Mus musculus with 9 samples.

Results

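ADAM and ADAMTS genes encode zinc metalloproteases of 2 related families, and the table of testis RNA at postnatal day 10 holds 57 of them among 23389 genes. They were taken by name, as the 68 of 29661 rows whose first gene name starts with Adam and a digit or with Adamts. They were divided by family, and the ADAMs also by where they are known to be expressed. This gave 21 testis ADAMs (Adam7, of the epididymis, is counted with them), 12 ADAMs called widely expressed, and 24 ADAMTS and ADAMTS-like genes. The 12 include Adam8, Adam11, Adam22, Adam23 and Adam28, which are best known from particular cell types. RefSeq assigns another row with a blank name to Adam9 and another to Adamts20, and both were added to the level of their gene.

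The RNA-seq samples are C57BL/6 mouse testis at postnatal day 10, with 3 libraries whose genotype is given as Lin28a knockout and 3 given as wild type. Titles of the former carry the abbreviation cKO, but neither the allele nor a Cre driver is stated in the labels used here. LIN28A is an RNA-binding protein of undifferentiated spermatogonia, and the comparison asks which RNAs differ in level without it. The 3 LIN28A CLIP samples were not analysed here.

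The deposited table gives 1 pooled FPKM value per group (fragments scaled to transcript length and library size), in columns named case and control, with the authors' test between them. Case was read as the knockout and control as the wild type from these names alone. No spread between libraries can be given, the depth is unknown, and whether libraries come from separate animals is not stated. Lin28a itself was at 23.4 FPKM in the case column against 8.82 in the other (q = 0.00191 in the authors' deposited table), opposite to the reading of case as knockout. Each direction below therefore rests on the column names. Markers of the testis were present, with the 8 Sertoli cell markers summing to 618 FPKM in the case column and 602 FPKM in the control column.

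ADAMs are membrane proteins with a metalloprotease and a disintegrin domain. Widely expressed members such as ADAM10 and ADAM17 cut the extracellular parts of other membrane proteins, including Notch receptors and growth factor precursors. Several testis ADAMs have lost the catalytic residues and act on sperm instead, in passage through the oviduct and in binding to the egg's coat. ADAMTS proteins are secreted, carry thrombospondin repeats and cut matrix proteins such as versican, aggrecan and procollagen. ADAMTS-like proteins keep the repeats but have no protease domain.

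Testis ADAMs, the group of lowest level, had a lower median CpG count than the other 2 groups in the promoter windows at hand. These covered 10 of the 21 testis ADAMs, among them the close copies Adam1a and Adam1b, and Adam6a and Adam6b. RefSeq promoter windows of 300 bases, from 250 bases before the start site to 50 after it, were at hand for 31 of the 57 genes (build GRCm38.p6). The 10 testis ADAM windows held 0 to 4 CpG dinucleotides, with a median of 1, against a median of 7 over the 32851 windows of all genes. Of all windows, 38.0% held 4 or fewer, a limit taken from the highest of these 10. Each member has 1 window, the nearest to the edge of its deposited region, while that share counts every window. The 7 windows of widely expressed ADAMs had a median of 25 CpGs (range 6 to 32), and the 14 ADAMTS and ADAMTS-like windows one of 24.5 (range 2 to 46). Adam10 and Adam17, the 2 members of highest level, are shown first, 5′ to 3′ along the gene, with each CpG in capitals.
Adam10 (chr9:70678732-70679031, plus strand): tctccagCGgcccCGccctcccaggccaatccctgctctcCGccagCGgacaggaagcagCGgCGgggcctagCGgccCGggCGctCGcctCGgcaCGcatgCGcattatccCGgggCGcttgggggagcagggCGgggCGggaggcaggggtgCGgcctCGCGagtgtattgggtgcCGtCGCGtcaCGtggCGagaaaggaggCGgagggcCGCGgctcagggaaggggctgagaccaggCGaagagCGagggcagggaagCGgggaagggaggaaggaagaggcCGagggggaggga
Adam17 (chr12:21373583-21373882, minus strand): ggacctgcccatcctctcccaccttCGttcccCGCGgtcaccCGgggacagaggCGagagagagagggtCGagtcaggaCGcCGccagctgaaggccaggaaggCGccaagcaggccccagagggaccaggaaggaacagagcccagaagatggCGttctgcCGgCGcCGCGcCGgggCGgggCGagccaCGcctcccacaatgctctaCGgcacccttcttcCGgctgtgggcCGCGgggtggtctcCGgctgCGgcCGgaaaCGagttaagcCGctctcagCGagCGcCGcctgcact

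Adam10 has 32 CpGs and Adam17 has 30. For contrast, Adam1a was the testis ADAM of highest level, while Adam6b and Adam21 were near 0 FPKM.
Adam1a (chr5:121521646-121521945, minus strand): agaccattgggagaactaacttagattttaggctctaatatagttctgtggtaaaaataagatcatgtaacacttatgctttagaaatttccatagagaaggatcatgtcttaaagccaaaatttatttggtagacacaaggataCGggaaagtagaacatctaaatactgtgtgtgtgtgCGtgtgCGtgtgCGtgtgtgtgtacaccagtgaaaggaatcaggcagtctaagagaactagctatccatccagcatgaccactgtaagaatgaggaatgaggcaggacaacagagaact
Adam6b (chr12:113489315-113489614, plus strand): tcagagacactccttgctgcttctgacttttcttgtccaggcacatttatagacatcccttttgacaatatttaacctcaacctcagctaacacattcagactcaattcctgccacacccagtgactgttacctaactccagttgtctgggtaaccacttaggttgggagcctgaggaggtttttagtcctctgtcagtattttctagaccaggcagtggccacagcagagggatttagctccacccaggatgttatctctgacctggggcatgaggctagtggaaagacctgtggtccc
Adam21 (chr12:81568425-81568724, minus strand): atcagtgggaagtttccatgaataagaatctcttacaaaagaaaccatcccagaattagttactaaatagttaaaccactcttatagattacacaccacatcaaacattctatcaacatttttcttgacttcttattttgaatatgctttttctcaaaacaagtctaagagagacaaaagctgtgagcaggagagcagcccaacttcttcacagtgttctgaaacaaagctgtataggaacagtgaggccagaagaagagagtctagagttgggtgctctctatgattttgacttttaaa

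Adam1a has 4 CpGs in its window, and Adam6b and Adam21 have 0. Among ADAMTS genes, Adamts1 and Adamts2 were of intermediate level and higher in the case column.
Adamts1 (chr16:85803064-85803363, minus strand): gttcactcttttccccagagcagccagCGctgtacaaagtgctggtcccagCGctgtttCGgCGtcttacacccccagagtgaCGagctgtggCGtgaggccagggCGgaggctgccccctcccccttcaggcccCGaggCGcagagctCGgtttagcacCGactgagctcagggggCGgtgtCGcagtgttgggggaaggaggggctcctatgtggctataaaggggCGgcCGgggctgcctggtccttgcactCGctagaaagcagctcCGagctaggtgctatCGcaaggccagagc
Adamts2 (chr11:50601835-50602134, plus strand): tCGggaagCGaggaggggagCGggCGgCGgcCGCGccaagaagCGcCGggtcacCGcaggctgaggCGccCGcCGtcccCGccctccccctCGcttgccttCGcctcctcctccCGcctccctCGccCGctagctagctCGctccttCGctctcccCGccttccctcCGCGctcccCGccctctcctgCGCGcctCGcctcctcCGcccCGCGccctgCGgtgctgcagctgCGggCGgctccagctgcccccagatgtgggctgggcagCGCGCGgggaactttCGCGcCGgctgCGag

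Adamts1 has 18 CpGs and Adamts2 has 41. The motif GGGCGG, on either strand, was in 0 of 10 testis ADAM windows, 5 of 7 windows of widely expressed ADAMs and 12 of 14 ADAMTS windows, against 35.7% of all windows. It contains a CpG, so it is not independent of the CpG count. The motif TATAAA, on either strand, was in 3 testis ADAM windows (Adam6a, Adam6b and Adam29) and 2 ADAMTS windows (Adamts1 and Adamtsl2), against 13.6% of all windows. The palindrome TGACGTCA was in 0 of the 31 windows, against 1.79% of all windows.

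Each of the 15 matched members averaging 1 FPKM or more had 7 or more CpGs. A high CpG count did not always go with a high level: Adamtsl3 had 46 CpGs and Adamts3 and Adamts20 had 41 each, yet all 3 had a mean FPKM below 1. Within the ADAMTS and ADAMTS-like genes the order was opposite, with a median of 41 CpGs for the 5 windows of genes below 1 FPKM and of 24 for the 9 others. The RefSeq start lay within 500 bases of the edge of the deposited gene region for 29 of the 31 genes. The exceptions were Adamts9 and Adamtsl5.

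**Figure D1:**
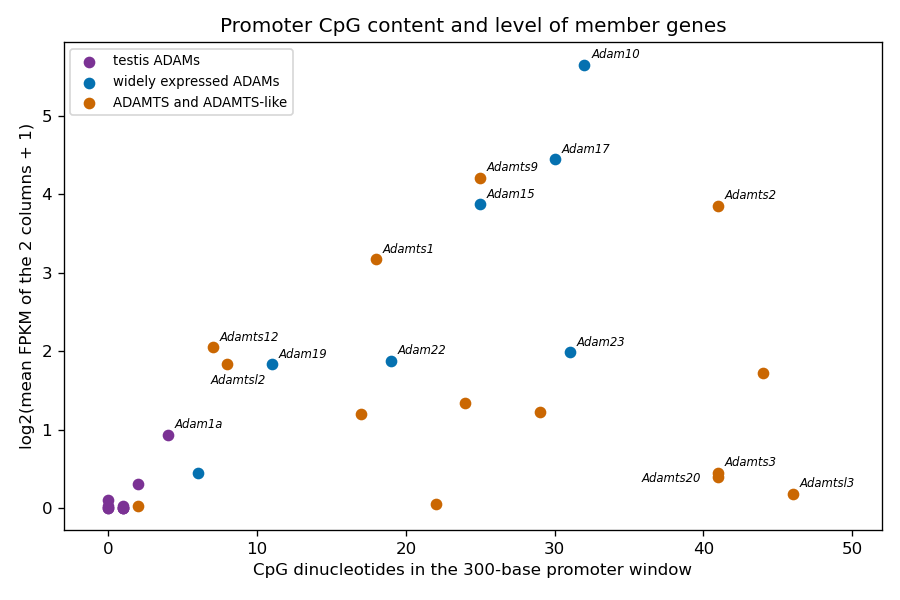
Number of CpG dinucleotides in the 300-base promoter window (horizontal) against log2 of the mean FPKM of the 2 columns plus 1 (vertical) for the 31 member genes with a RefSeq window, 1 point per gene. The 10 testis ADAMs with a window sit at 4 CpGs or fewer and below 1 FPKM, while Adam10 stands highest at 32 CpGs.

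Testis ADAMs were at or near 0 in both columns. Of the 21, 9 were listed at 0 in both (Adam6a, Adam18, Adam20, Adam24, Adam26a, Adam26b, Adam29, Adam34 and Adam39), and 0 reached a mean of 1 FPKM. Summed over all 21, they came to 1.76 FPKM in the case column and 1.999 FPKM in the control column. The name of the group thus does not describe its level at this age.

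Fertilin is a dimer of an ADAM1 and the ADAM2 protein. Adam1a (chr5:121518604-121521695), one of the 2 genes for its alpha subunit, was at 0.871 FPKM in the case column and 0.949 FPKM in the control column (p = 0.834 in the authors' deposited table). It was the highest testis ADAM and the single one the authors tested. Adam1b (chr5:121500097-121502980), its neighbour 15.6 kb away, was at 0.235 and 0.234 FPKM. Adam2 (chr14:66027329-66077733), for the beta subunit, was listed at 0 in the case column and at 0.0701 FPKM in the control column. Adam1a and Adam1b are close copies, so reads may be shared between them and the split is uncertain.

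Adam3, whose protein (cyritestin) sperm need to pass into the oviduct, was at 0.0722 FPKM in the case column and 0.02996 FPKM in the control column. Adam5 was at 0.277 FPKM in both, Adam32 at 0.0923 and 0.104 FPKM, Adam30 at 0.0542 and 0.116 FPKM, Adam21 at 0.0719 and 0.0752 FPKM, and Adam4 at 0.0808 and 0.0474 FPKM. Adam25 and Adam6b were listed at 0 in the case column and at 0.0320 and 0.0375 FPKM in the control column. Adam7, known from the epididymis, was listed at 0 and at 0.0257 FPKM. Of the 12 genes above 0 in at least 1 column, 4 were higher in the case column and 8 in the control column, on values too near 0 for a direction to be read. Adam6a and Adam6b, and Adam26a and Adam26b, are also close copies. A row for Adam34l, which the table names Gm5346 and which is not a member by name, was listed at 0 in both columns.

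Other genes of late germ cells were low as well. Of 8 round spermatid markers, Prm1 and Prm2, the protamines that pack sperm DNA, were listed at 0 in both columns, and 6 had a mean below 1 FPKM. The 2 others were Tnp1, a transition protein, at 1.3005 FPKM in the case column and 1.82 FPKM in the control column, and Spaca1, an acrosome protein, at 1.56 and 1.68 FPKM.

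The chaperones and maturation factors that act on sperm ADAMs, listed together with the sperm proteins Izumo1 and Spaca1, were, in contrast, partly expressed. Izumo1 and Spaca1 are in the round spermatid list as well, and Spaca1, at 1.56 and 1.68 FPKM, counts as expressed in both lists. Of 18 listed, 12 had a mean of at least 1 FPKM, of which 3 were higher and 9 lower in the case column, with a median difference of log2(FPKM + 1) of -0.04. This difference, case minus control, is used for all lists, and its pseudocount of 1 makes it smaller than the true change of low genes. Calr, a general chaperone of the endoplasmic reticulum, was at 349 and 374 FPKM, Hspa5, another, at 263 and 314, and Pdia3, a disulfide isomerase, at 245 and 237. Clgn and Calr3, testis chaperones needed for sperm ADAM proteins, were already present at 6.00 and 6.09 FPKM and at 2.63 and 2.70 FPKM. Tex101, whose loss depletes ADAM3 from sperm, was at 87.0 FPKM in the case column and 165 FPKM in the control column (p = 1.95e-04 and q = 0.292 by the test in the authors' deposited table). Ly6k, a partner of TEX101, was at 17.7 and 38.0 FPKM (p = 0.00417 by the test in the authors' deposited table). Both are germ cell genes, and neither passed a q-value of 0.05. In whole testis, fewer cells of a type and less RNA per cell cannot be told apart. Prss37 and Rnase10 were listed at 0.

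Widely expressed ADAMs held the highest levels of all members and were close to equal in the 2 columns. Of 12 genes, 8 had a mean of at least 1 FPKM, with a median difference of 0.04 beside 0.03 over all 12665 genes at that level. In all, 7 of the 8 were higher in the case column, where 60.8% of all genes were, but 4 of 8 were once the columns were rescaled by the median ratio of all genes. A single member, Adam19, was at least 1.2-fold higher, against 9.76% of all genes, and 0 were as much lower, against 6.06%.

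Adam10 (chr9:70679001-70780229), the main sheddase of Notch receptors, was at 49.9 FPKM in the case column and 48.9 FPKM in the control column (p = 0.903 in the authors' deposited table). By mean level it ranked 1384 of 23389 genes. Adam17 (chr12:21316392-21373591), which releases TNF and ligands of the EGF receptor, was at 21.1 and 20.6 FPKM (p = 0.897 by the test in the authors' deposited table). For both, the direction turned when the columns were rescaled by the median ratio of all genes, so neither is read as higher in either column. The region of Adam17 is shared with Iah1 in the table.

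Adam9 (chr8:24949611-25016922), a sheddase of many cell types, shows how the rows of a gene can part. The row that carries its name (NM_007404) was at 2.81 FPKM in the case column and 11.3 FPKM in the control column, 4.03-fold lower in case. The row with a blank name that RefSeq gives to Adam9 (NM_001270996) was at 15.2 and 6.51 FPKM, 2.33-fold higher in case. Together they came to 18.0 and 17.8 FPKM, a 1.01-fold difference whose direction turned when the columns were rescaled. Both rows have the status FAIL, so no p-value can be read for either.

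Adam15 (chr3:89339640-89350010), which is present in epithelial and vascular cells, likewise had 2 rows that went opposite ways. Row NM_001037722 was at 7.13 and 8.35 FPKM, and row NM_009614 at 6.96 and 4.88 FPKM. Summed they came to 14.1 FPKM in the case column and 13.2 FPKM in the control column, and both rows have the status FAIL. Splitting reads among overlapping transcripts is an estimate, whose error was not analysed here.

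**Figure D2:**
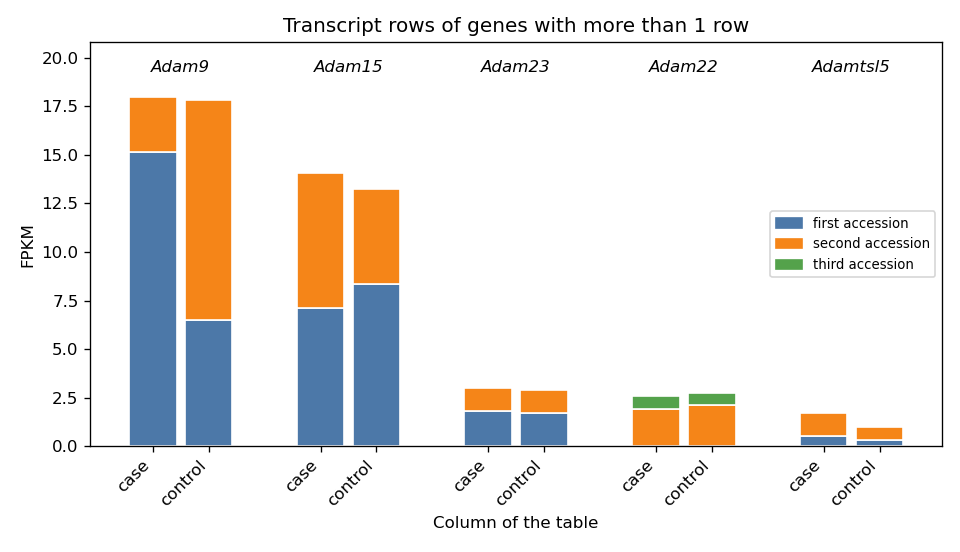
FPKM of each transcript row, stacked, in the case and control columns for Adam9, Adam15, Adam23, Adam22 and Adamtsl5, with accessions in sorted order. The 2 Adam9 rows change places while their total stays at 18.0 and 17.8 FPKM.

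Adam12, a meltrin of mesenchymal cells and muscle, was at 6.27 FPKM in the case column and 5.36 FPKM in the control column (p = 0.430 in the authors' deposited table). Adam19, another meltrin, was at 2.85 and 2.27 FPKM, 1.26-fold higher in case (p = 0.369 in the authors' deposited table). These were the 2 widely expressed ADAMs with the largest differences among the 8, 0.19 and 0.24 on the log2(FPKM + 1) scale.

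Adam11, Adam22 and Adam23 encode proteins without protease activity that are best known from neurons, where ADAM22 and ADAM23 bind the secreted protein LGI1. Adam23 was at 3.01 FPKM in the case column and 2.90 FPKM in the control column over 2 rows, and Adam22 at 2.60 and 2.74 FPKM over 3 rows. The Adam22 rows above 0 also went opposite ways, at 1.89 and 2.14 FPKM and at 0.715 and 0.602 FPKM. Adam11 stood at 0.744 and 0.823 FPKM. The smallest p-value of their tested rows was 0.748 in the authors' deposited table.

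The other 3 were low. Adam8, of myeloid cells, was at 0.388 FPKM in the case column and 0.339 FPKM in the control column, and Adam33 at 0.156 and 0.104 FPKM. The 2 rows of Adam33 went opposite ways, with nearly all of the case value in 1 row and of the control value in the other. Adam28, of lymphocytes and the epididymis, was listed at 0 in all 3 of its rows. Of 7 epididymis markers, Lcn5, Lcn8 and Defb30 were listed at 0 in both columns too, and Spint4 and Cuzd1 were below 1 FPKM. Cst8, a cystatin, was at 17.6 FPKM in the case column and 9.65 FPKM in the control column. Crisp1 was at 0.261 and 2.27 FPKM (p = 0.00256 and q = 0.999966 by the test in the authors' deposited table).

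ADAMTS genes were higher in the case column across the family, by amounts that no single test called. All 24 were above 0 in at least 1 column, and 22 of them were higher in case, as were 58.6% of the 18899 genes of the table above 0. The 2 lower ones, Adamtsl3 and Adamts18, were below 0.2 FPKM in both columns. At a mean of at least 1 FPKM there were 15 genes, and 15 were higher in case, also after that rescaling, with a median difference of 0.25 and a range of 0.09 to 0.54. Of these, 11 were at least 1.2-fold higher, against 9.76% of all genes and 13.2% of the 8479 genes with a mean of 1 to 20 FPKM, the span these 15 lie in. The count depends on the threshold, which was chosen after the values were seen: 14 were at least 1.1-fold higher (31.2% of genes in that span), 7 at least 1.3-fold (6.04%) and 3 at least 1.5-fold (1.89%). With a pooled value per group, libraries cannot be counted for this direction, and genes that share a cell of origin do not vary independently.

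**Figure D3:**
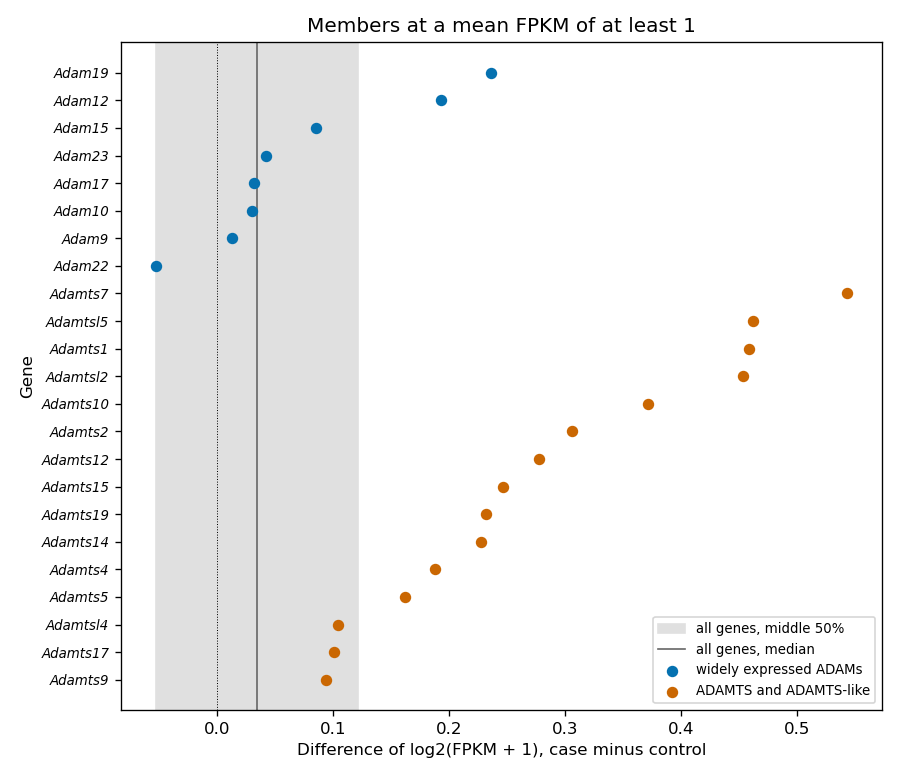
Difference of log2(FPKM + 1), case minus control, for each of the 23 members with a mean FPKM of at least 1 (1 point per gene), with the median and the middle 50% of all genes as a line and a grey band. The 15 ADAMTS and ADAMTS-like genes lie between 0.09 and 0.54, while 6 of the 8 widely expressed ADAMs lie within or at the edge of the band.

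By the authors' test, 0 of 26 tested member rows passed a q-value of 0.05 in the authors' deposited table, where 0.0514% of 13629 tested rows did. A p-value under 0.05 was reached by 1 of the 26, against 1.28% of tested rows in either direction and 0.646% that were higher in case. That row was Adamts7 (chr9:90162978-90200102), whose product cuts cartilage oligomeric matrix protein, at 6.56 FPKM in the case column and 4.19 FPKM in the control column. The difference was 1.57-fold (p = 0.0410 and q = 0.999966 by the test in the authors' deposited table). Of the 26 rows, 23 were higher in case.

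Proteoglycanases cut versican and aggrecan, and the 2 most abundant ADAMTS genes, Adamts5 and Adamts9, are among them. Adamts5 (chr16:85858157-85901125), the main aggrecanase of mouse cartilage, was at 20.4 FPKM in the case column and 18.1 FPKM in the control column, 1.12-fold higher (p = 0.491 in the authors' deposited table). Adamts9 (chr6:92772699-92901441), a large versican-cutting member, was at 18.2 and 17.0 FPKM, 1.07-fold higher (p = 0.690 in the authors' deposited table). Adamts1 (chr16:85793828-85803115), known in the ovary for its role in ovulation, was at 9.44 and 6.59 FPKM, 1.43-fold higher (p = 0.0766 in the authors' deposited table). The 2 most abundant genes thus differed least, and Adamts1 most, among the 3.

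Adamts4 stood at 1.31 FPKM in the case column and 1.03 FPKM in the control column, Adamts15 at 1.32 and 0.960 FPKM, and Adamts8 at 1.16 and 0.678 FPKM, each 1 row with p above 0.05 in the authors' deposited table. Adamts20, a versican-cutting gene known from pigment patterns, was at 0.419 and 0.209 FPKM. All 7 proteoglycanases were higher in the case column.

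Procollagen N-proteinases trim the amino end of fibrillar procollagens so that fibrils can form. Adamts2 (chr11:50602085-50804049) was at 14.97 FPKM in the case column and 11.9 FPKM in the control column, 1.26-fold higher (p = 0.234 in the authors' deposited table). Adamts14 was at 2.54 and 2.03 FPKM, 1.25-fold higher (p = 0.415 in the authors' deposited table), and Adamts3, which also activates VEGF-C, at 0.442 and 0.291 FPKM.

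Of the remaining ADAMTS genes, Adamts7 was the most abundant, at the levels given with its test. Adamts10, which binds fibrillin, was at 3.72 FPKM in the case column and 2.65 FPKM in the control column, 1.40-fold higher, in a row of status FAIL. Adamts12, the nearest relative of Adamts7, was at 3.53 and 2.74 FPKM, 1.29-fold higher (p = 0.292 in the authors' deposited table). Adamts19 was at 1.60 and 1.21 FPKM, Adamts17 at 1.37 and 1.21 FPKM, and Adamts6 at 0.917 and 0.841 FPKM.

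Adamts16 (chr13:70727808-70841810), whose loss has been tied to undescended testes and infertility in rats, was at 0.970 FPKM in the case column and 0.439 FPKM in the control column. This 2.21-fold difference was the largest of the members the authors tested (p = 0.0557 in the authors' deposited table), but both values lie below 1 FPKM. Adamts13, the liver enzyme that cuts von Willebrand factor, was at 0.0290 FPKM and listed at 0, and Adamts18 was at 0.0232 and 0.0472 FPKM.

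ADAMTS-like genes encode matrix proteins without a protease domain. Adamtsl2, a binder of fibrillin and of latent TGF-beta, was at 3.12 FPKM in the case column and 2.01 FPKM in the control column, 1.55-fold higher (p = 0.157 in the authors' deposited table). Adamtsl4, which is needed for the lens zonule, was at 1.63 and 1.45 FPKM. Adamtsl5 was at 1.71 and 0.965 FPKM over 2 rows, but the table gives both the same region of chromosome 10 as other rows, 60 in all from 46 genes, so no position is given for it. Adamtsl1 was at 0.329 and 0.285 FPKM and Adamtsl3 at 0.114 and 0.154 FPKM.

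**Figure D4:**
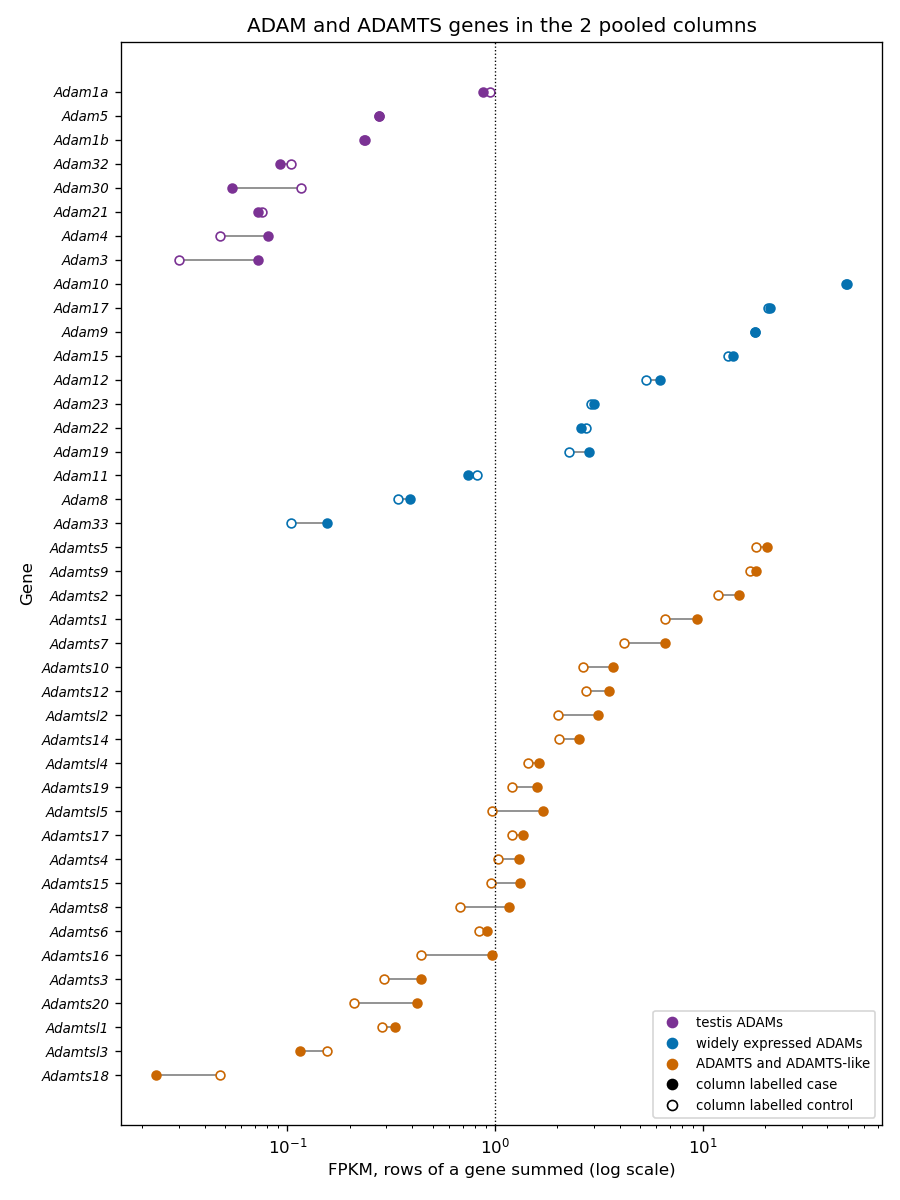
FPKM in the case column (filled) and the control column (open), on a log scale, for each member gene above 0 in both columns. Genes listed at 0 in a column cannot be drawn on this axis. Filled points lie to the right of open ones for all ADAMTS genes drawn except Adamtsl3 and Adamts18.

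Several members lie close together on a chromosome. On chromosome 8, Adam18, Adam3, Adam5, Adam32 and Adam9 follow each other with no other gene of the table between them, and Adam32 and Adam9 are 0.806 kb apart. In that row of 5, Adam9 was at 18.0 and 17.8 FPKM over its 2 rows, and the 4 testis ADAMs were at 0.277 FPKM or less. Adam24, Adam25, Adam20 and Adam39 also follow each other on chromosome 8, and none of these 4 was above 0.0320 FPKM. Adamts1 and Adamts5 are 55.0 kb apart on chromosome 16, with 1 other gene between them, and Adamts15 and Adamts8 20.1 kb apart on chromosome 9. Each gene of these 2 ADAMTS pairs was higher in the case column, as were 22 of all 24 ADAMTS and ADAMTS-like genes.

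Genes that act with these proteases were described by the same counts. Of 7 inhibitors, 4 had a mean of at least 1 FPKM, 2 higher and 2 lower in case. Timp3, the TIMP that inhibits ADAM17 and ADAMTS proteases and stays in the matrix, was at 48.1 FPKM in the case column and 45.5 FPKM in the control column. Timp2 was at 48.4 and 55.2, Reck, a membrane-anchored inhibitor of ADAM10, at 10.5 and 12.0, and Timp1 at 8.84 and 7.08 FPKM. Their p-values were 0.441 or more in the authors' deposited table.

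Proprotein convertases remove the inhibitory prodomain of most ADAMs and ADAMTSs. Of 5, 4 had a mean of at least 1 FPKM and 3 of these were higher in case. Pcsk6 was at 11.4 and 8.48 FPKM, 1.35-fold higher, and Pcsk5 at 6.22 and 4.78 FPKM, with p = 0.129 and p = 0.211 in the authors' deposited table. Furin, the most abundant, was at 30.9 and 28.8 FPKM, and Pcsk7 at 7.72 and 7.86 FPKM. The most abundant row of Furin has the status FAIL, so no p-value was read for it.

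Partners that carry ADAM10 (the C8 tetraspanins) or ADAM17 (the iRhoms Rhbdf1 and Rhbdf2, and Frmd8) to the cell surface had a median difference of 0.08 over 8 of 9 genes, 6 of them higher. Tspan17 was the exception in size, at 21.5 FPKM in the case column and 31.9 FPKM in the control column (p = 0.0630 in the authors' deposited table). Tspan14 was at 31.2 and 27.5, Rhbdf2 at 21.9 and 20.4 and Tspan5 at 21.8 and 20.4 FPKM. For Rhbdf2 the most abundant row has the status FAIL.

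Substrates of the 2 families differed in their counts. Of 29 proteins shed by ADAMs, 20 genes had a mean of at least 1 FPKM, 10 higher and 10 lower in case, with a median difference of 0.01. App was at 183 and 189 FPKM, Sdc4, a syndecan, at 128 and 129, Kitl, the Sertoli cell ligand of KIT, at 52.6 and 43.9, and Tnfrsf1a at 38.5 and 34.4. Of 15 ADAMTS substrates, 7 had a mean of at least 1 FPKM and 6 were higher, with a median difference of 0.25. Col3a1 was at 177 and 149 FPKM, Col1a2 at 147 and 126, Col1a1 at 69.9 and 53.9, and Fbn1, fibrillin, at 30.6 and 26.0. Fbn2 was the lower one, at 12.0 and 14.4 FPKM. Of the 18 shed proteins and 7 ADAMTS substrates with a test on their most abundant row, 0 had p under 0.05 in the authors' deposited table. Among the 11644 genes so tested, 44 were higher and 52 lower at that p, so few were to be found in lists of this size. The most abundant row of App has the status FAIL, so App was not among those tested.

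Markers of peritubular and stromal cells, Leydig cells and endothelium were higher beside the ADAMTS genes. Those of spermatogonia and Sertoli cells went both ways, and those of macrophages and immune cells were mostly lower. All 10 peritubular and stromal markers were higher in case, summing to 874 FPKM against 767 FPKM in control, a ratio of 1.14 beside 1.24 for the 24 ADAMTS genes summed. All 7 Leydig cell markers were higher, summing to 332 and 255 FPKM, and 6 of 7 endothelial markers, summing to 33.1 and 27.9 FPKM. None of these markers was at 0 in either column. Of all genes averaging 1 FPKM or more, 60.8% were higher in case, with a median ratio of 1.026. The stromal markers Dcn (ratio 1.02) and Cnn1 (1.03) lay near that ratio. Hsd17b3, of Leydig cells, was at 38.7 and 24.6 FPKM (p = 0.0302 and q = 0.999966 by the test in the authors' deposited table). Of the 8 Sertoli cell markers, 5 were higher and 3 lower in case. Among the lower ones, Rhox5 had a ratio of 0.462 (p = 0.0254 and q = 0.999966 by the test in the authors' deposited table). Of the 7 macrophage and immune markers, 5 were lower and 2 higher in case, with sums of 58.9 FPKM in the case column and 69.8 FPKM in the control column. Lyz2 made up the largest part of both sums, at 31.9 and 45.6 FPKM. The other lower ones, Adgre1, Csf1r, Cd68 and Mrc1, had ratios of 0.850 to 0.972, with p of 0.611 or more in the authors' deposited table. Cd74, of antigen-presenting cells, was one of the higher ones, at 6.22 and 2.04 FPKM (p = 0.00524 and q = 0.999966 by the test in the authors' deposited table). Col1a1 and Col1a2 are in the stromal list as well as among the substrates. The 8 meiotic germ cell markers were all lower in case, summing to 179 and 302 FPKM. Of the 7 with a test on their most abundant row, 5 had p under 0.05 in the authors' deposited table. Among the 11644 genes so tested, 0.447% were lower at that p. By q-value, 0 of these markers passed 0.05. The part of these shifts in the ADAMTS difference was not tested.

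**Figure D5:**
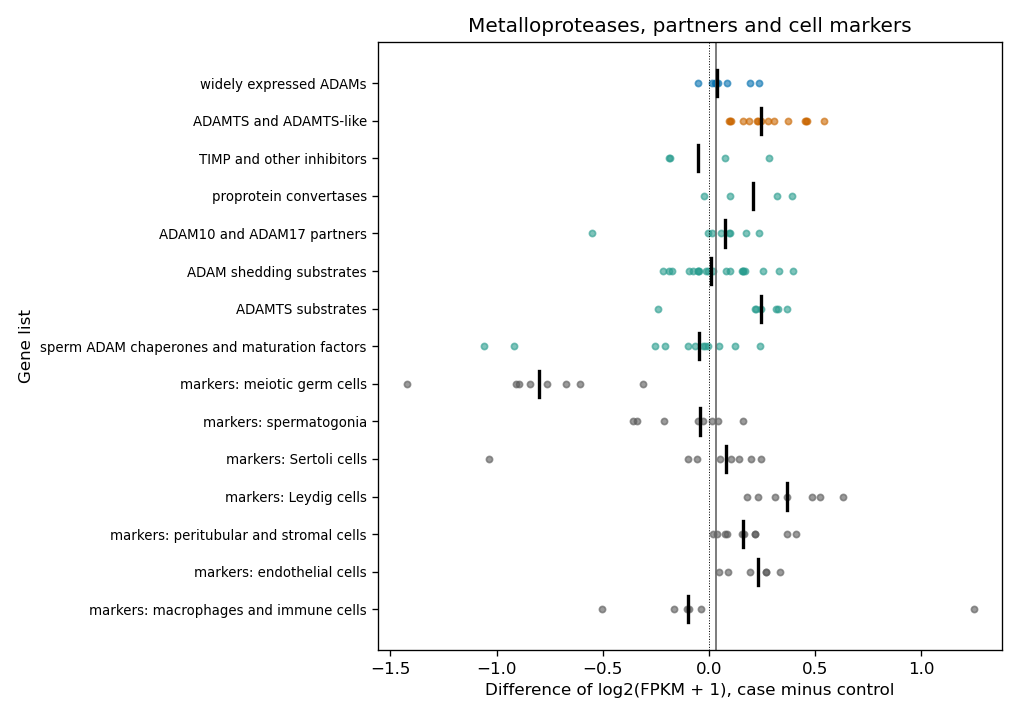
Difference of log2(FPKM + 1), case minus control, of genes averaging 1 FPKM or more in each list (1 point per gene, black bar at the list's median, grey line at the median of all genes). ADAMTS genes and ADAMTS substrates both have a median of 0.25, beside 0.16 for peritubular and stromal markers, 0.37 for Leydig cell markers and -0.80 for meiotic markers.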

How the data were processed

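RNA-seq libraries of postnatal day 10 testis (3 knockout, 3 wild type) were analysed from 1 deposited table. TopHat2 2.0.9 and build mm10 are named in the submitters' processing notes, while the quantifying program is not stated there. The authors deposited, per the file headers, FPKM as 1 pooled column per group. The q-value and p-value of each RefSeq accession come from the authors' own test between these columns, per the file headers. P-values were read only for the 13629 rows of status OK.

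Symbols came from RefSeq GRCm38.p6 by accession (29071 of 29660), with members named by the table. Region starts were raised by 1. FPKM was summed over a gene's rows, and lists were described over genes averaging 1 FPKM or more, with 1 as pseudocount (pandas 2.3.3). The planned test per library could not be run on pooled columns. The scripts were tested on simulated data. Members and lists were chosen with earlier results of these data known, and the fold threshold of 1.2 after seeing the values. A threshold between 1.2 and 1.3 was used first, with the same members past it and a smaller share of all genes, and was then lowered. Named genes were every member, the pathway genes at p under 0.05, and up to 4 of highest level per list. A few further pathway genes were named after their values were seen: Fbn2, Clgn, Calr3, Prss37 and Rnase10, as were the single markers named.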

Additional observations from a re-analysis of the deposited data

How the results depend on the processing

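The median difference of ADAMTS and ADAMTS-like genes, 0.25, stayed above 0 under each of 7 alternatives and was 0.35 with a pseudocount of 0.1. The number of ADAMTS and ADAMTS-like genes past the fold threshold, 11, was 7 at 1.3 and 3 at 1.5, thresholds added after seeing the data, where the higher ones leave fewer genes by construction. The number of member rows called, 0, was 1 at an unadjusted p under 0.05 and 0 under the 3 other rules of adjustment. The medians of the widely expressed and testis ADAMs moved by at most 0.1 on the log2 scale, and the latter, over the 12 genes above 0, has no value at a mean FPKM of at least 1 or 5. Of 117 values of 24 single genes, 104 kept their direction and moved by at most 0.1, and 8 moved by more. The 5 that turned were those of Adam10 (-0.0074), Adam17 (-0.0043) and Adam9 (-0.023) with the columns rescaled, of Adam15 with its most abundant row alone (-0.20), and of Adam9 without its row of blank name (-1.69), an alternative added after seeing the data. Adam9 was at 1.11 with its most abundant row alone. No paired analysis was possible because the 2 columns hold no single libraries, and no library could be left out for the same reason. Depth is unknown and sets no interval.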
